A study of Mus musculus with 5 samples.

Results

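The genes described here encode ligands, receptors and feedback regulators of transforming growth factor beta (TGF-beta), ALK1 and endoglin signalling. They were chosen by name: the ligands Tgfb1, Tgfb2 and Tgfb3, the receptors Tgfbr1, Tgfbr2 and Acvrl1, the co-receptor Eng, the inhibitory Smad genes Smad6 and Smad7, and the target gene Id1. All 10 genes, of 37074 gene names on the array, were found, and they were measured by 18 probes. Every gene was well above background on the array of normal endothelium and on all 3 tumor arrays, so none was lost to a filter on dim probes.

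TGF-beta ligands bind the type II receptor Tgfbr2, which recruits a type I receptor that phosphorylates Smad proteins. In most cells the type I receptor is Tgfbr1 (ALK5), whose Smads drive matrix and wound response genes, whereas endothelial cells also use Acvrl1 (ALK1), which answers mainly to the bone morphogenetic proteins Bmp9 and Bmp10 with the co-receptor endoglin and drives the Id genes and Smad6. Smad6 and Smad7 are induced by the same signals and inhibit them, and inherited loss of ALK1 or endoglin causes hereditary hemorrhagic telangiectasia, in which vessels of several organs, the liver among them, form direct shunts.

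Gene expression was measured on 5 one-colour Agilent mouse arrays with 60-base probes, with 1 array for each condition. Liver sinusoidal endothelial cells (LSEC, the fenestrated endothelium of the liver) came from normal mouse liver. Tumor endothelial cells (TEC) came from tumors grown in the mouse liver. These tumors were of the human hepatoma lines HAK-1B and KYN-2 (HAK1B and KYN2 in the labels) and the mouse hepatoma line Hepa1-6. The paper describes isolating both LSEC and TECs with magnetic beads, directed at CD31 in the tumor protocol. It also reports the purity of the isolated LSEC and of each TEC by fluorescence-activated cell sorting. The fifth array held cultured Hepa1-6 cells without any host tissue. The labels give the strain C57BL/6 for LSEC and all TECs and C57L for the Hepa1-6 cells, whereas the methods describe female mice aged 6 weeks of the strains C57BL/6 or BALB/c nu/nu (nude mice, which lack T cells) without saying which host carried which tumor. The methods on the arrays name the human line Huh-7 where the labels name HAK-1B, do not say whether animals were pooled, and name no treatment for these 5 samples, and what human tumor RNA adds to mouse probes was not tested.

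Since every condition was read once, no value has a replicate behind it, and precision is limited by the 5 arrays. Levels are given as log2 of the background-subtracted intensity after quantile normalization over the 5 arrays, and a ratio is the difference of 2 such levels of the same probe. Slide and group cannot be told apart, as all 3 TEC arrays shared 1 slide and neither the LSEC array nor that of the Hepa1-6 cells was on it. All 4 ratios of a gene share its single LSEC value. The probes well above background made up 44.6% to 78.1% of an array, with the highest share on the Hepa1-6 TEC array, and repeated spots of 1 probe had a median coefficient of variation of 2.7% to 3.12%. The labelled cell types were checked with marker lists. All 12 pan-endothelial markers were above background on LSEC and on each TEC array, but their summed level was 488538 on LSEC and 77386 to 165959 on the TECs, and fewer endothelial cells cannot be told apart from less RNA of these genes per cell. On the Hepa1-6 cells only 3 of the 12 were above background, and Pecam1, Cdh5, Kdr and Tek were not.

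The 3 ligand genes are described first. The brightest probes for Tgfb1 and Tgfb2 are printed because they cover related stretches of the 2 genes. The probe for Tgfb1 was placed at chr7:26489877-26489936 and that for Tgfb2 at chr1:188449333-188449392 of the mm9 build named in the array files. Aligned without gaps, 28 of 41 bases (68.3%) were identical, and these are in capitals.
Tgfb1: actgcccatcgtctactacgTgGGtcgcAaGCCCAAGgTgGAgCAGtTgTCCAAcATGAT
Tgfb2: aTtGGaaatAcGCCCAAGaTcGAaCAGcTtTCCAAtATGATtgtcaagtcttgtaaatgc
The values that follow differed between these probes across the arrays, and whether either probe also bound the other gene's RNA was not tested.

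Tgfb3, a ligand best known in mesenchyme and palate development, had the highest TEC to LSEC ratios of the 10 genes. Its level was 8.28 on LSEC, 12.56 on HAK-1B TEC, 11.46 on Hepa1-6 TEC, 13.47 on KYN-2 TEC and 4.76 on the Hepa1-6 cells. All 3 TEC arrays lay above LSEC, and on the Hepa1-6 cells the probe was not well above background. Relative to LSEC the level was 19.5-fold higher for HAK-1B, 9.1-fold for Hepa1-6 and 36.5-fold for KYN-2, a mean log2 ratio of 4.22 ± 1.00 (SD, n = 3 tumors). Among all genes kept in a comparison, 0.966%, 5.85% and 0.424% had a higher ratio. In the Hepa1-6 cells it was at least 4.98-fold lower than in LSEC. Tgfb3 was measured by 1 probe.

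Markers of stellate cells and fibroblasts, cells that can make this ligand, went in both directions on the TEC arrays. Of the 10 markers, 8 were above background on LSEC, with Des and Lrat missing, and 9, 10 and 9 on the TECs of HAK-1B, Hepa1-6 and KYN-2, with Lrat missing for both human lines. In HAK-1B TEC 4 of 9 markers kept were past 1.5 and 2 past 0.66, beside 26.6% and 26.9% of all genes. In Hepa1-6 TEC 4 and 3 of 10 were, beside 35.2% and 30.9%, and in KYN-2 TEC 5 and 2 of 9, beside 26.0% and 28.5%. The median log2 ratios were 0.30, 0.20 and 0.78 for HAK-1B, Hepa1-6 and KYN-2 tumors. Of the 9 markers measured in every comparison, 2 were higher in all 3 TECs, beside 11.0% of all genes. They were Col3a1, a fibrillar collagen (log2 ratios 2.63, 3.63 and 3.91), and Pdgfrb, a receptor of mural cells (1.42, 2.47 and 2.75), both named after their values were seen. The summed level was 2357 on LSEC and 3705 to 4159 on the TECs, and on LSEC, HAK-1B TEC and Hepa1-6 TEC its brightest marker was Thy1 (10.64, 11.34 and 11.03), which was lower in KYN-2 TEC (10.04). The part of these cells in the Tgfb3 values was not tested.

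Tgfb1, the main ligand of platelets, macrophages and other leukocytes, differed less. Its level was 10.98 on LSEC, 12.18 on HAK-1B TEC, 11.66 on Hepa1-6 TEC, 11.85 on KYN-2 TEC and 9.90 on the Hepa1-6 cells. The 3 TEC arrays again lay above LSEC and the Hepa1-6 cells below it. The ratios were 2.3-fold, 1.6-fold and 1.82-fold for HAK-1B, Hepa1-6 and KYN-2 tumors (mean log2 ratio 0.91 ± 0.26, SD, n = 3 tumors). A dimmer second probe gave 0.74, -0.32 and 0.53 on the log2 scale, so its sign was opposite in Hepa1-6 TEC. Markers of the cells that make this ligand moved in different ways, and the genes named from these lists were chosen after their values were seen. All 9 macrophage markers matched were above background on LSEC and the TECs, and they summed to 828700.3 on LSEC and 429646 to 713527 on the TECs, with median log2 ratios of 0.24, -0.90 and -1.0 for HAK-1B, Hepa1-6 and KYN-2 tumors. The sum covers opposite directions. Clec4f, Marco, Cd5l and Vsig4, markers of resident Kupffer cells, were lower in all 3 TECs, whereas the log2 ratios of the general marker Cd68 were 0.85, 0.12 and 1.25 and those of Lyz2 0.83, 0.02 and 0.40. Those of Csf1r (0.24, -0.90 and -1.0), C1qa (0.83, -0.79 and -0.35) and C1qb (0.54, -0.86 and -0.16) were positive in HAK-1B TEC alone. Of 10 neutrophil markers, 7 were above background on LSEC (Cxcr2, Ly6g and Ngp were not) and 10, 10 and 8 on the TECs. Past 1.5 were 7 of 10, 8 of 10 and 5 of 8 kept, beside 26.6%, 35.2% and 26.0% of all genes. The median log2 ratios were 4.34, 3.79 and 1.11. S100a8, a calcium-binding protein of neutrophils, had log2 ratios of 7.03, 4.37 and 1.62. The neutrophil sum was 94030.2 on LSEC and 76540 to 213147 on the TECs, and it includes Csf3r, which read 16.45 on LSEC and 15.22 on the cultured Hepa1-6 cells. The 10 platelet and megakaryocyte markers were all above background on LSEC and the TECs. Of these, 8, 7 and 5 were past 0.66, beside 26.9%, 30.9% and 28.5% of all genes, with median log2 ratios of -2.25, -2.20 and -0.50. The platelet sum, 66375 on LSEC and 43740.2 to 141237 on the TECs, followed its brightest marker Pf4, which read 15.31 on LSEC and 16.90 on KYN-2 TEC. The part of these cells in the Tgfb1 values was not tested.

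Tgfb2, a ligand of endothelial to mesenchymal change in the heart, was lower than LSEC in the Hepa1-6 tumor and higher in the tumors of the human lines. Its level was 7.12 on LSEC, 8.04 on HAK-1B TEC, 5.79 on Hepa1-6 TEC, 8.37 on KYN-2 TEC and 4.67 on the Hepa1-6 cells, where it was not well above background. The order was KYN-2 TEC, HAK-1B TEC, LSEC and Hepa1-6 TEC. It was 1.89-fold higher in HAK-1B TEC and 2.37-fold higher in KYN-2 TEC than in LSEC, and 2.52-fold lower in Hepa1-6 TEC. It was at least 2.23-fold lower in the Hepa1-6 cells. The second probe ordered the LSEC and TEC arrays in the same way, with log2 ratios of 0.62 for HAK-1B, 0.99 for KYN-2 and -2.64 for Hepa1-6. Hepa1-6 TEC had the only negative ratio among the TECs for both probes.

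**Figure D1:**
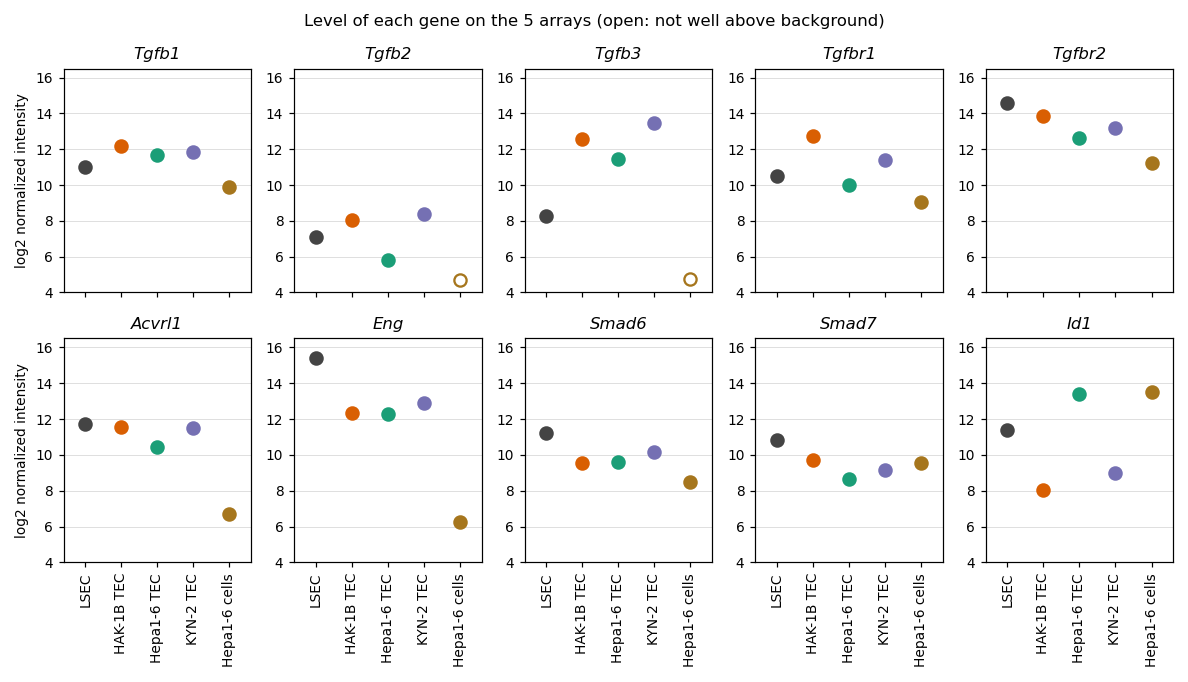
Each panel gives 1 gene, with the log2 normalized intensity of its brightest probe on the vertical axis and the 5 arrays on the horizontal axis, 1 point per array. Tgfb3 lies higher on the 3 TEC arrays than on LSEC, Eng lies lower, and Id1 is high on the Hepa1-6 TEC and Hepa1-6 cell arrays and low on HAK-1B and KYN-2 TEC. Open points were not well above background.

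Of the receptors, Tgfbr1 was the one with a higher level in some TECs. Its brightest probe read 10.49 on LSEC, 12.71 on HAK-1B TEC, 9.98 on Hepa1-6 TEC, 11.38 on KYN-2 TEC and 9.03 on the Hepa1-6 cells. HAK-1B and KYN-2 TEC lay above LSEC (4.65-fold and 1.86-fold), and Hepa1-6 TEC lay 1.42-fold below it. Tgfbr1 had 4 probes. All 4 were higher than LSEC with the human lines (log2 ratios 1.16 to 2.67 for HAK-1B and 0.37 to 1.41 for KYN-2), but in Hepa1-6 TEC the ratios ran from -2.07 to 0.80, with 1 of 4 above 0. The probe with the positive value is shown because its interval in the array file, chr4:47419898-47423556 of mm9, covers 3659 bases for 60 bases of probe, as a probe that spans a splice junction would.
Tgfbr1: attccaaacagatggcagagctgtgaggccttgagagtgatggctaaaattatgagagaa
Read by this probe, Tgfbr1 was higher than LSEC on all 3 TEC arrays, with log2 ratios of 2.67, 0.80 and 1.41 for HAK-1B, Hepa1-6 and KYN-2 tumors. Of the other 3 probes, 2 are annotated to separate Ensembl transcripts, and 1 of these was not well above background on LSEC.

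Tgfbr2, the receptor that binds the ligands first, was lower in every TEC. Its level was 14.58 on LSEC, 13.87 on HAK-1B TEC, 12.61 on Hepa1-6 TEC, 13.19 on KYN-2 TEC and 11.24 on the Hepa1-6 cells, so LSEC was highest and the Hepa1-6 cells lowest. The level was 1.63-fold, 3.91-fold and 2.61-fold lower than LSEC in the TECs of HAK-1B, Hepa1-6 and KYN-2. The difference was 10.1-fold in the Hepa1-6 cells. In HAK-1B TEC the difference did not reach the ratio of 0.66 when arrays were scaled to the 75th percentile (log2 ratio -0.32). Tgfbr2 was measured by 1 probe, whose interval in the array file covers 10 bases for 60 bases of probe.

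Acvrl1, the endothelial type I receptor ALK1, was close to its LSEC level in the TECs of both human lines. It was measured by 2 probes, and the dimmer one is printed because its interval, chr15:100967514-100967806 of mm9, covers 293 bases for 60 bases of probe and so also appears to cross a junction.
Acvrl1: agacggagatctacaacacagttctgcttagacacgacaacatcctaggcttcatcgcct
The brighter probe read 11.74 on LSEC, 11.58 on HAK-1B TEC, 10.42 on Hepa1-6 TEC, 11.52 on KYN-2 TEC and 6.69 on the Hepa1-6 cells. HAK-1B and KYN-2 TEC differed from LSEC by less than the ratio of 1.5 or 0.66 (1.12-fold and 1.17-fold lower), and Hepa1-6 TEC was 2.49-fold lower. The printed probe gave log2 ratios of 0.06, -0.82 and -0.01. The brighter probe was 33.1-fold lower in the Hepa1-6 cells than in LSEC, and the other was not well above background.

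Eng, which encodes the ALK1 co-receptor endoglin, differed from Acvrl1. Its level was 15.40 on LSEC, 12.34 on HAK-1B TEC, 12.26 on Hepa1-6 TEC, 12.92 on KYN-2 TEC and 6.26 on the Hepa1-6 cells. The 3 TEC arrays lay within 1 log2 unit of each other, all below LSEC and above the Hepa1-6 cells. Eng was 8.36-fold lower than LSEC in the HAK-1B tumor, 8.82-fold in the Hepa1-6 tumor and 5.59-fold in the KYN-2 tumor, a mean log2 ratio of -2.90 ± 0.36 (SD, n = 3 tumors). A second probe, annotated to an Ensembl transcript at another place in the gene, gave log2 ratios of -2.64, -3.76 and -1.82. In the Hepa1-6 cells the brighter probe was 566-fold lower than LSEC and still above background.

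Because all pan-endothelial markers summed to less on the TEC arrays, the ratios of the receptors were set beside those of the 12 markers. The median log2 ratio of the markers was -2.60, -2.45 and -1.38 for HAK-1B, Hepa1-6 and KYN-2 tumors. The Acvrl1 ratio lay 2.43, 1.13 and 1.16 above these medians and exceeded the ratios of 12, 12 and 9 of the 12 markers. The Eng ratio lay below the medians (differences of -0.46, -0.69 and -1.10) and exceeded 2 of 12 markers in each tumor. Across the 4 other ways of scaling the arrays, Acvrl1 exceeded the same numbers of markers, and Eng exceeded 2 to 5 of them. Tgfbr2 exceeded 12, 9 and 6 of the 12. The 2 markers below Eng were Tek and Kdr in every tumor, and the 3 above Acvrl1 in KYN-2 TEC were Pecam1, Emcn and Vwf. How much of the Eng ratio goes with a smaller endothelial share was not tested.

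**Figure D2:**
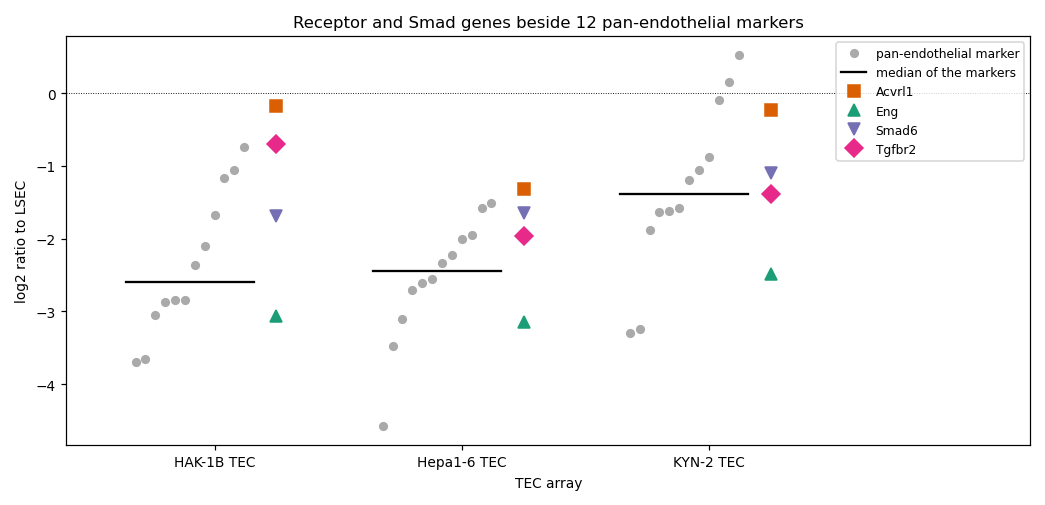
For each TEC array, grey points give the log2 ratio to LSEC of the 12 pan-endothelial markers, sorted by value, and the black line is their median. Acvrl1 (squares) lies above the median on all 3 arrays by 1.13 to 2.43 log2 units, Eng (triangles) lies below it, and Smad6 and Tgfbr2 lie between these 2 genes.

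The inhibitory Smad genes were both lower in the TECs. The ratio of Smad6 exceeded those of 8, 10 and 7 of the 12 pan-endothelial markers in HAK-1B, Hepa1-6 and KYN-2 TEC. That of Smad7 exceeded 10, 8 and 3. Smad6, which blocks mainly the bone morphogenetic protein branch, was measured by 1 probe, shown because it is the sole reading of the gene, at chr9:63801378-63801437 of mm9.
Smad6: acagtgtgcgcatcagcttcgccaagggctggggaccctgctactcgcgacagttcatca
Its level was 11.23 on LSEC, 9.55 on HAK-1B TEC, 9.59 on Hepa1-6 TEC, 10.15 on KYN-2 TEC and 8.50 on the Hepa1-6 cells. LSEC was highest and the Hepa1-6 cells lowest, and the level was 3.22-fold, 3.13-fold and 2.12-fold lower than LSEC for HAK-1B, Hepa1-6 and KYN-2 tumors (mean log2 ratio -1.47 ± 0.34, SD, n = 3 tumors).

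Smad7, which blocks both branches, read 10.85 on LSEC, 9.71 on HAK-1B TEC, 8.66 on Hepa1-6 TEC, 9.15 on KYN-2 TEC and 9.57 on the Hepa1-6 cells. The Hepa1-6 cells did not have the lowest level here, unlike for the receptors, and Hepa1-6 TEC did. The level was 2.2-fold, 4.55-fold and 3.24-fold lower than LSEC for HAK-1B, Hepa1-6 and KYN-2 tumors. A dimmer second probe was lower in Hepa1-6 TEC (log2 ratio -2.56), whereas its ratios of -0.38 for HAK-1B and -0.26 for KYN-2 did not reach 0.66.

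The promoters of the genes were searched for the palindrome GTCTAGAC, in which the Smad binding core GTCT meets its reverse complement, so that both strands read alike. RefSeq promoters of 300 bases (GRCm38.p6) were searched for 6 of the 10 genes, which were Tgfb1, Tgfb2, Tgfbr1, Tgfbr2, Eng and Smad6. Smad7 was left out of this search, and no promoter was given for Tgfb3, Acvrl1 and Id1. Among the promoters searched, the palindrome was found in that of Smad6 alone. Of all 32851 promoters of the same length, 70 (0.213%) held it. It begins at position -4 from the start used for this promoter, on the minus strand. The interval annotated for the gene reaches to 64022085, so the site lies within it. The 30 bases around the palindrome, at chr9:64022045-64022074, are shown with it in capitals.
Smad6 promoter: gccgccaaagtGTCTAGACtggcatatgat
The GC element GGCGCC, its own reverse complement, was found in 1 of the 6, a promoter of Tgfbr1, and in 11.9% of all promoters. A match of letters is a description of the sequence and not evidence of binding.

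Id1, an inhibitor of basic helix-loop-helix factors and a classic target of ALK1 and bone morphogenetic protein signals, gave the widest range among the TECs. Its level was 11.37 on LSEC, 8.04 on HAK-1B TEC, 13.39 on Hepa1-6 TEC, 9.01 on KYN-2 TEC and 13.54 on the Hepa1-6 cells. Both Hepa1-6 arrays were high and close to each other (log2 difference -0.14, TEC minus cells), LSEC was intermediate, and the TECs of the human lines were low. The log2 ratio to LSEC was -3.32 for HAK-1B and -2.36 for KYN-2, but 2.03 in Hepa1-6 TEC (4.07-fold higher) and 2.17 in the Hepa1-6 cells (4.5-fold higher). The SD of the 3 TEC log2 ratios was 2.85 around a mean of -1.22, so the mean describes no single tumor.

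The summed level of hepatoma cell markers, like that of Id1, was high on both Hepa1-6 arrays. Of 8 such markers, 7 were above background on Hepa1-6 TEC, with Dlk1 missing. The sum was 135970.5 on Hepa1-6 TEC, against 1663 on LSEC, 1206 on HAK-1B TEC, 7507 on KYN-2 TEC and 299297 on the cultured Hepa1-6 cells. The 3 low sums fell on LSEC and on the TECs of the human lines, where 6 of 8 were above background and Dlk1 and Epcam were not. On the cultured cells 4 of 8 were above background, and Dlk1, Epcam, H19 and Igf2 were not. Not every marker followed the sum, as H19 and Igf2 were highest on KYN-2 TEC (9.71 and 6.67). The part of hepatoma cells in the Id1 level of Hepa1-6 TEC was not tested. Tgfb3, Eng and Acvrl1 were at their lowest on the array of the cultured cells.

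**Figure D3:**
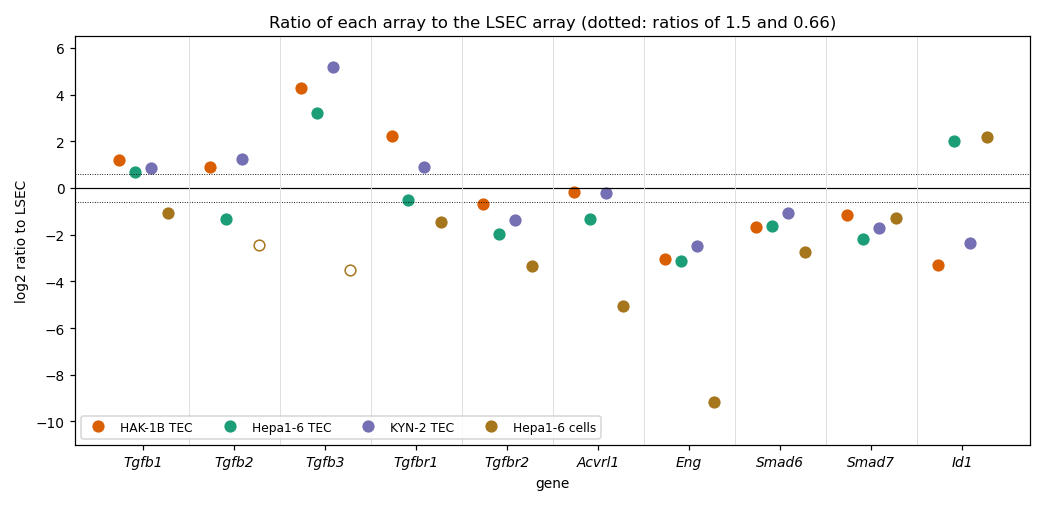
The log2 ratio of each array to LSEC is on the vertical axis and the 10 genes are on the horizontal axis, with 1 colour for each array and dotted lines at ratios of 1.5 and 0.66. Tgfb1 and Tgfb3 lie above the upper line and Tgfbr2, Eng, Smad6 and Smad7 below the lower line in all 3 TECs, whereas Tgfb2 and Id1 lie on opposite sides in different tumors. Open points mark Hepa1-6 cell values that were not well above background.

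Counted over the 10 genes, 4 were past a ratio of 1.5 and 5 past 0.66 in HAK-1B TEC, beside 26.6% and 26.9% of all genes kept. In Hepa1-6 TEC the counts were 3 higher and 6 lower, beside 35.2% and 30.9%, and in KYN-2 TEC 4 higher and 5 lower, beside 26.0% and 28.5%. In the Hepa1-6 cells Id1 was higher and the other 9 genes were lower, beside 36.2% and 37.7%. In all 3 TECs 2 of 10 genes were higher (Tgfb1 and Tgfb3), beside 11.0% of all genes, and 4 were lower (Tgfbr2, Eng, Smad6 and Smad7), beside 17.8%. The median log2 ratio of the 10 genes was -0.44, -1.33 and -0.66 for HAK-1B, Hepa1-6 and KYN-2 tumors, where the median of all genes was 0.0, 0.09 and -0.05.

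The methods of the study ask for a Z-score beyond 2 or -2 besides the ratio, here taken as the distance of a log2 ratio from the mean of all kept probes in SD. This asked for a 7.25-fold higher level in HAK-1B TEC, 11.4-fold in Hepa1-6 TEC, 6.79-fold in KYN-2 TEC and 39.8-fold in the Hepa1-6 cells. For a lower call it asked for 6.91-fold, 9.84-fold, 6.77-fold and 51.2-fold in the same order. Tgfb3 passed with both human lines, where 3.11% (HAK-1B) and 3.64% (KYN-2) of all genes were called higher. Eng and Id1 were called lower in HAK-1B TEC, beside 3.94% of all genes, but Eng was not called there after normalization by pair, as in the methods, or scaling to the 75th percentile (log2 ratios -2.88 and -2.55), and no member was called lower in KYN-2 TEC, beside 2.87%. In the Hepa1-6 cells Eng was called lower, beside 4.81%, and no member higher, beside 2.59%. By the brightest probes, no gene of the 10 was called in Hepa1-6 TEC, where 4.55% of all genes were called higher and 2.04% lower. None was called in all 3 TECs either, where 0.58% and 1.0% were. The dimmer Eng probe was called lower in Hepa1-6 TEC (log2 ratio -3.76) and in the Hepa1-6 cells (-6.41), but not in HAK-1B or KYN-2 TEC. With Z-scores taken within windows of 500 probes of like intensity, Tgfb3 and Eng passed in Hepa1-6 TEC, and Tgfb3 passed in all 3 TECs. In limma, with the 3 TECs as replicates of 1 group against the lone LSEC array, which was assumed to vary like the TECs, 0 of 10 genes had a Benjamini-Hochberg adjusted p under 0.05. The adjusted p was 0.443 for Eng, 0.448 for Tgfb3 and 0.583 for Smad6, the 3 genes with an unadjusted p under 0.05, and 0 of all 42113 probes passed (3581 at an unadjusted p under 0.05).

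**Figure D4:**
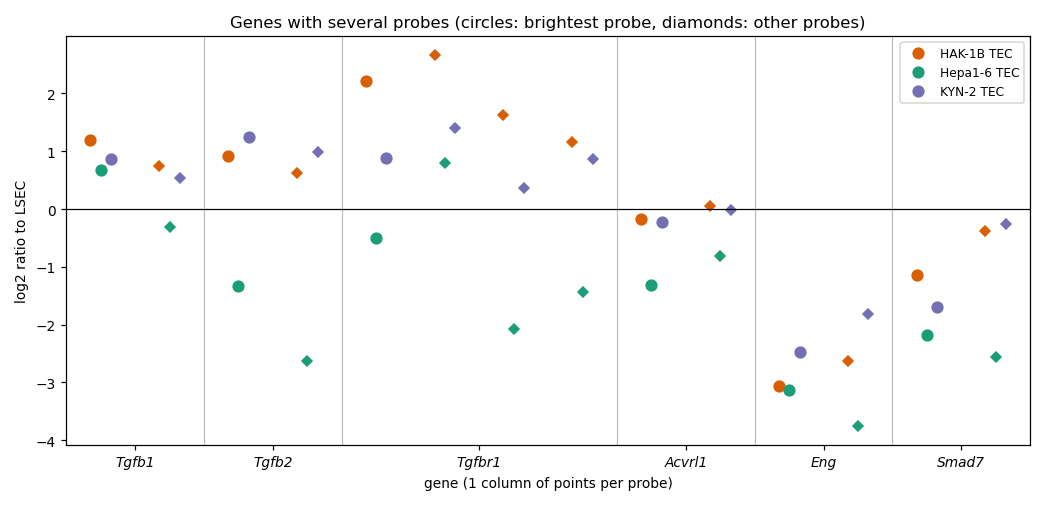
For the 6 genes with several probes, each column of points is 1 probe, with the log2 ratio of the 3 TECs to LSEC on the vertical axis. The probes of Eng are all below 0, those of Acvrl1 are near or below 0, and the spread between probes is widest for Tgfbr1 in Hepa1-6 TEC, from -2.07 to 0.80.

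The remaining genes of the pathway were described by 7 lists, in which a gene was counted as higher or lower when it was past 1.5 or 0.66 in all 3 TECs, as 11.0% and 17.8% of all genes were. Folds given for the 3 TECs together are those of the mean log2 ratio. Among the other ligands, 2 of the 9 genes measured in every comparison were higher and 2 were lower. Inhba, the activin A subunit, was at least 28.5-fold higher on average than LSEC, where it was not well above background, and Inhbb was 3.27-fold higher. Bmp6 and Bmp2, which LSEC secrete to control hepcidin and iron, were 13.2-fold and 10.4-fold lower. In the Hepa1-6 cells Inhba was also higher than in LSEC, at least 11.3-fold, whereas Inhbb was 23.4-fold lower. Gdf2, which encodes Bmp9, the ligand of ALK1, was above background on LSEC (5.42), Hepa1-6 TEC (6.41) and KYN-2 TEC (5.97) but not on HAK-1B TEC, and it was chosen after its values were seen.

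Of 11 genes for the latency and activation of TGF-beta, 3 were higher in all 3 TECs and 2 were lower. Thbs1, which can release the active ligand from its latent complex, was 9.57-fold higher, and the latent TGF-beta binding proteins Ltbp3 and Ltbp2 were 9.52-fold and 3.05-fold higher. Ltbp4, a related binding protein, was 7.9-fold lower, and Lrrc32 (GARP), which holds latent TGF-beta on the cell surface, was 3.77-fold lower. The latent binding proteins thus went in both directions. In the Hepa1-6 cells Thbs1 and Ltbp3 were also higher than in LSEC (4.38-fold and 17.9-fold), and Ltbp2 was not above background.

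No other receptor or co-receptor was higher in all 3 TECs, and 3 of 9 were lower. Tgfbr3 (betaglycan), the co-receptor that presents Tgfb2, was 7.9-fold lower, Bmpr2, the type II partner of ALK1, was 3.3-fold lower, and Acvr1 (ALK2) was 3.22-fold lower. The members Tgfbr2 and Eng were also past 0.66 in every TEC, but Tgfbr2 in HAK-1B TEC was not when scaled to the 75th percentile. Of the 12 pan-endothelial markers, 9 were lower in all 3 TECs, with a median log2 ratio of -2.10. The mean log2 ratio was -2.98 for Tgfbr3, -1.72 for Bmpr2 and -1.69 for Acvr1. The part of the endothelial share in these values was not tested. The receptor Smads and Smad4 differed little: 0 of 5 were past either ratio in all 3 TECs, and their mean log2 ratios ran from -0.47 to 0.64. Among 13 other inhibitors, Fstl3, a binder of activin, was 4.19-fold higher and Bmper, a modulator of bone morphogenetic proteins, was 3.2-fold lower. In the Hepa1-6 cells Fstl3 was 19.3-fold higher than in LSEC and Bmper 5.71-fold lower.

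Target genes of TGF-beta and of the ALK1 branch gave different counts. Of 16 TGF-beta targets, 8 were higher and 3 lower in all 3 TECs, with a median log2 ratio of 1.11. Fn1 (fibronectin) was 49.4-fold higher, and Col1a1, a chain of type I collagen, at least 59.7-fold higher. In each TEC, Fn1, Col1a1 and Timp1 also passed the Z-score. Timp1, an inhibitor of metalloproteinases, was chosen after its values were seen. Fn1 and Timp1 were also called higher in the Hepa1-6 cells (64.4-fold and 59.4-fold), and Col1a1 was not above background there. Of the stellate cell and fibroblast markers given for Tgfb3, Col3a1 and Pdgfrb were also higher in all 3 TECs while 2 to 3 markers in each TEC were past 0.66, and the part of these cells in Col1a1 was not tested. Twist1, the transcription factor with the lowest ratio of the list, was 11.0-fold lower. Of 11 targets of bone morphogenetic proteins and ALK1, 0 were higher and 4 were lower, with a median log2 ratio of -0.90. The list holds genes of endothelium such as Gja4, Gja5, Hey1 and Tmem100, and of the 12 pan-endothelial markers 9 were lower in all 3 TECs, with a median of -2.10. The part of the endothelial share in the counts of either target list was not tested. Cdkn1c, a cyclin-dependent kinase inhibitor, was 11.6-fold lower, Gja4 (connexin 37) 4.58-fold lower and Id3 3.57-fold lower. Hamp (hepcidin), the fourth, was near background, at least 2.81-fold and 2.17-fold lower in HAK-1B and KYN-2 TEC. Id3 was not higher in Hepa1-6 TEC as Id1 was, and its log2 ratios were -2.48, -1.70 and -1.34 for HAK-1B, Hepa1-6 and KYN-2 tumors. These lists were written by hand from general knowledge of the pathway, and their targets also respond to other signals.

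**Figure D5:**
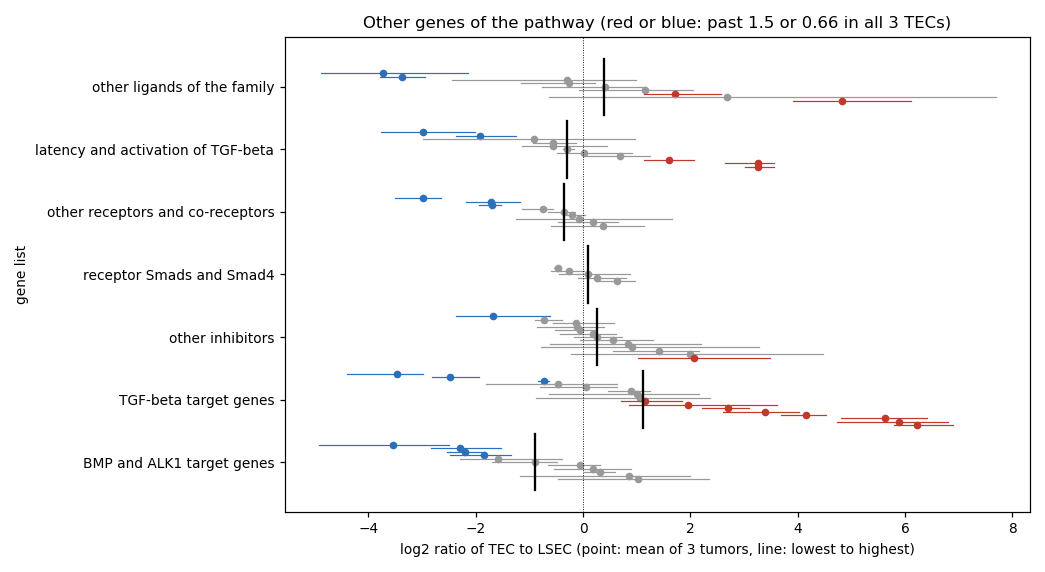
Each row of points is 1 list, each point a gene, with the mean log2 ratio of the 3 TECs to LSEC on the horizontal axis and a line from the lowest to the highest TEC. The black bar is the median of the list, 1.11 for TGF-beta targets and -0.90 for BMP and ALK1 targets. Genes in red or blue were past 1.5 or 0.66 in all 3 TECs.

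The genes whose ratios to LSEC over the 4 other arrays were most like those of 4 members were looked up among 15621 genes above background on LSEC, by the smallest of the largest differences. For Acvrl1 these were Qk, Phf11c and F2rl2, within 0.21 to 0.40 log2 units on every array. For Eng they were Armcx1, Rcn3 and Il27ra, within 0.26 to 0.39, and for Smad6 Nostrin, Slc27a3 and Btrc, within 0.17 to 0.22. For Id1 they were Cyp2c68, Prkaa2 and Cyp2c69, which lay farther off, at 0.63 to 0.99, and the 2 cytochrome P450 genes have close copies that a probe may not separate. With 4 ratios that share 1 LSEC value, such likeness is a description of these arrays.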

How the data were processed

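Per the methods and the submitters' processing notes, Cy3-labelled RNA was hybridized to Agilent 60-mer mouse arrays, and the scans were converted with Agilent Feature Extraction 9.5.1.1. The authors deposited, for each spot, a background-subtracted intensity on a linear scale (gProcessedSignal), the mean and local background intensity, and flags. The deposited table of processed values is on a linear scale, with a median of 43.0 in each column, and followed the values used here with r = 0.9998 on each array. Its direction needs no sign, and which arrays were normalized together stays unknown.

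Control spots were left out, spots of a probe were averaged (56605 probes), and the intensities the authors deposited were taken as log2 values and quantile normalized over the 5 arrays. The methods normalize by pair. A gene took its brightest probe. A probe entered a comparison if either array had it flagged present, apart from 4460 lincRNA probes. A level not well above background was replaced by the lowest value well above background on that array for an "at least" fold. The rule of size called ratios from 1.5 up with Z-scores from 2 up, and ratios down to 0.66 or below with Z-scores of -2 or below. limma 3.58.1 in R 4.3.3 compared the 3 TECs with LSEC over all probes with Benjamini-Hochberg adjustment. Python 3.11.15, numpy 2.4.6, pandas 2.3.3 and matplotlib 3.10.9 were used otherwise. The scripts were tested on simulated data. No array had a saturated probe.

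The 10 genes, the 7 pathway lists, the 10 marker lists and the tests were chosen with earlier results of these data known. In a pathway list, the named genes were up to 3 with the largest mean ratio among those past 1.5 or 0.66 in all 3 TECs, and others that are named were chosen after their values were seen. A further TGF-beta target that this rule names is counted with its list but not reported here. Probe coordinates are those of the array files (mm9), with no annotation of that build used here, so exons and UTRs are not given. The median log2 ratios of the marker lists not given in the results, for HAK-1B, Hepa1-6 and KYN-2 TEC, were 0.05, 0.22 and 0.59 for T and NK cells, 0.45, -1.16 and 0.21 for B cells, -4.30, 0.36 and -3.07 for hepatocytes, and -3.40, -2.88 and -2.36 for LSEC. MicroRNA arrays and arrays of treated tumors were not analysed here. Alternatives were scaling to the 75th percentile, normalization by pair, the deposited table, normexp (offset 50), other flag filters, windowed Z-scores, the mean over a gene's probes, a limma trend and each TEC left out.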

Additional observations from a re-analysis of the deposited data

Results flagged for a closer look

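Tgfb2 and Id1 were past the ratio of 1.5 in 1 or more TECs and past 0.66 in another. The log2 ratio of Tgfb2 to LSEC was 0.91, -1.33 and 1.25 in the TECs of HAK-1B, Hepa1-6 and KYN-2 tumors. That of Id1 was -3.32, 2.03 and -2.36 in the same order. In both genes the Hepa1-6 tumor stood apart from the tumors of the human lines, in opposite directions. With 1 array per tumor the difference between tumors was not tested. The host strain, the species of the tumor cells and the tumor line cannot be told apart in this design.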

How the results depend on the processing

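No mean log2 ratio past 1.5 or 0.66 changed sign in any alternative. By the ratio alone, the count of genes higher in all 3 TECs was 2, and 1 with the mean over all probes of a gene, which leaves Tgfb3, and leaving out a TEC gave 2 to 4. Without Hepa1-6 TEC it was 4, with Tgfb2 and Tgfbr1 added. The count lower in all 3 was 4, with 3 when scaled to the 75th percentile and 4 to 5 with a TEC left out (5 without Hepa1-6 TEC, with Id1 added). By the rule of size on the brightest probes, 3 of 10 genes were called in HAK-1B TEC. The count was 2 when scaled to the 75th percentile or normalized by pair, where Eng was lost, and 4 under normexp, which adds Tgfbr1. The count was 0 in Hepa1-6 TEC, but 4 under normexp (Tgfb3, Tgfbr2, Eng and Smad7), 1 with the flag present on both arrays, 1 with no filter on flags and 2 with windowed Z-scores. In KYN-2 TEC the count was 1, but 3 under normexp, 3 with the flag present on both arrays, 3 with no filter and 2 with windows, which add Id1 and, in all but the last, Eng. In the Hepa1-6 cells it was 1, but 2 under normexp, 3 with the flag present on both arrays and 2 with no filter. In all 3 TECs it was 0, but 2 under normexp (Tgfb3 and Eng), 1 with the flag present on both arrays, 1 with no filter and 1 with windows, and leaving out a TEC gave 0 to 1, with Tgfb3 called without Hepa1-6 TEC. The cause of these differences was not tested. The limma count stayed at 0 in the 8 alternatives. Scaling to the 75th percentile moved the median of all genes by 0.34 in Hepa1-6 TEC and 0.13 in the Hepa1-6 cells. Relative to that median, Tgfb1 in Hepa1-6 TEC was at 0.16 on the log2 scale and no longer past 1.5. No paired analysis was possible because no group had a second array. The limits are the lone LSEC array, the 1 slide of all TECs, and the dimmer Tgfb2 probe, which read 2.99 on Hepa1-6 TEC, where the lowest value well above background was 2.85.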
